A study of Danio rerio with 6 samples.

Results

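In pre-vitellogenic ovarian follicles of zebrafish homozygous for a mutation of ybx1, 45 well-expressed genes stood at or below 0.5 of their wild-type level. They were chosen from 32057 genes listed. CPM is a gene's count divided by the total of its library and multiplied by 1000000. A gene was taken when its mean over the wild-type libraries was at least 20 CPM, the ratio of its mutant to its wild-type mean was above 1/8 and at most 0.5, and every mutant library lay below every wild-type library. Of 8165 genes at 20 CPM or more in wild type, 46 met these limits, a background share of 0.563%. One of them, pou5f3, was left out by identifier, with 4 other germ cell and pluripotency genes that did not meet the limits. The genotype contrast chose the members, so their values are given as a description and carry no test.

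The follicles came from AB-strain fish of 2 genotypes, wild type (ybx1+/+) and homozygous mutant (ybx1-/-), with 3 libraries each, and the comparison asks which transcripts differ just before the block that the series reports between the pre-vitellogenic and the early vitellogenic stage. No age, mutant allele, number of fish or number of follicles is given in the labels. Nothing in them says that the libraries came from separate fish, so p-values measure only the spread between these libraries, which may be technical. Total counts ran from 16600019 to 37764782 per library, so that 1 count was worth 0.0265 to 0.0602 CPM, and no member fell under 96 counts in any library. The mutated gene itself was still read: YBX1 (ENSDARG00000004757) had 276, 264 and 298 CPM in wild-type replicates 1 to 3 and 252, 241 and 229.7 CPM in mutant replicates 1 to 3. Its log2 fold change was -0.21 ± 0.06 (standard error, calculated as described below), with an edgeR adjusted p-value of 0.0244. This call was not made in 4 of 12 alternative fits, with a highest adjusted p-value of 0.0995 without wild-type replicate 3. The counts of the mutated gene therefore show no more than a small drop, to 86.3% of the wild-type mean. The gene named in the series title, cdkn1a, was read at 2.04 ± 0.318 CPM in wild type against 1.58 ± 0.370 CPM in mutant follicles (mean ± SD, n = 3), a log2 fold change of -0.38 that did not pass the test (edgeR adjusted p-value 0.296).

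Ybx1 belongs to the cold-shock-domain proteins, which bind both DNA and RNA. In vertebrate oocytes, proteins of this family coat stored messenger RNA, hold it back from translation and keep it stable. A growing follicle consists of an oocyte that accumulates such RNA and of the somatic cells around it, which exchange growth factors with it. Fewer cells of a type and less RNA per cell cannot be told apart in such bulk libraries.

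The summed counts of the 45 members made up 0.308% to 0.310% of a wild-type library and 0.123% to 0.1248% of a mutant library. Their mutant mean was between 14.1% and 49.8% of the wild-type mean, with a median of 41.1%. Over all 8165 genes at 20 CPM or more the median was 96.3%. The ratios were spread over the allowed range: 16 members had a ratio above 0.45, 17 were below that and above 1/3, and 12 were at 1/3 or less, with 3 of those at 1/4 or less. In the other direction, a ratio of at least 2 and below 8 without overlap was found for 44 genes, 0.539% of the 8165. That count kept the limit of 20 CPM on the wild-type mean, so genes that rose from a lower level are not in it. It is therefore no exact mirror image of the rule. Of the 8165 genes, 31.3% had every mutant library below every wild-type library, by any amount, and the reverse share was not counted. At an adjusted p-value under 0.05, edgeR's quasi-likelihood test called 21.2% of them lower and 10.5% higher. The limit of 20 CPM was set on the wild-type mean alone, which favours genes that are higher in wild type. Over all 17385 genes tested, 15.3% were called lower and 18.6% higher.

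**Figure D1:**
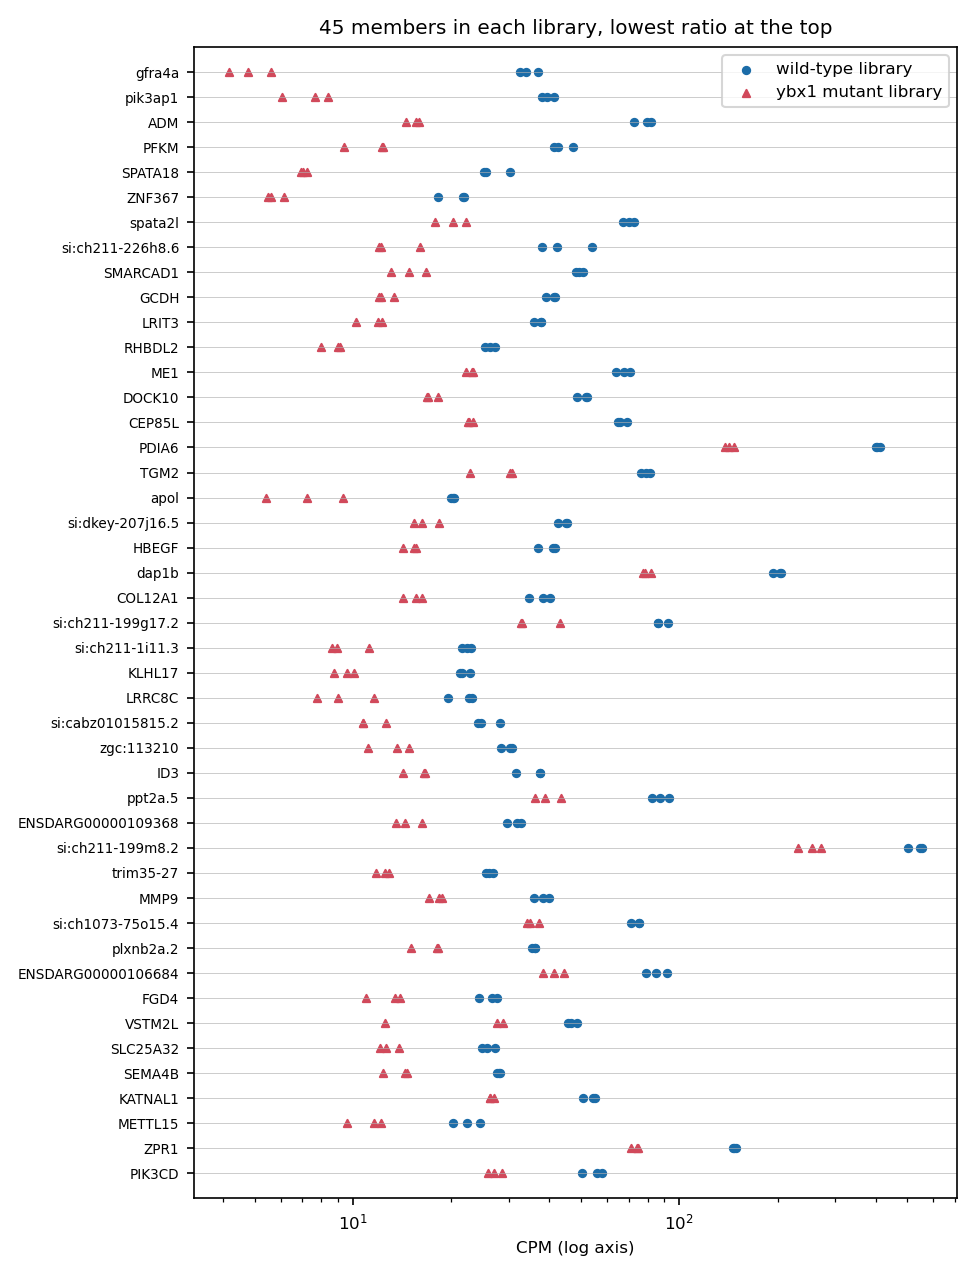
Each row is 1 of the 45 members, ordered by the ratio of mutant to wild-type mean with the lowest at the top, and each point is the CPM of 1 library on a log axis, circles for wild type and triangles for the ybx1 mutant. The triangles lie to the left of the circles in every row, as the choice of members fixes, and the distance narrows from gfra4a at 14.1% of wild type to PIK3CD at 49.8%; VSTM2L has 1 triangle far from the other two.

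The limits cut through a continuous range. Just inside 20 CPM stood apol with a wild-type mean of 20.2 CPM and ZNF367 with 20.6 CPM. Just below it, si:dkey-104n9.1 had 19.4 CPM and npr1a 19.2 CPM, with ratios of 0.189 and 0.350. At the upper limit of the ratio, PIK3CD (0.498) and ZPR1 (0.497) were inside, and si:ch1073-83m3.1 (0.501) and TG (0.502) were outside. At the lower limit, gfra4a (0.141) and pik3ap1 (0.187) were the lowest members, and no gene at 20 CPM or more had a ratio of 1/8 or less without overlap. Overlap alone left out ENSDARG00000103786, with a ratio of 0.189. Libraries also overlapped for 6 vitellogenin genes, but their ratios, from 0.0860 to 0.118, were below the lower limit of 1/8 as well.

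Other genes were tested with edgeR's quasi-likelihood test over the 17385 genes with enough counts. At an adjusted p-value under 0.05 it called 15.3% of them lower and 18.6% higher in the mutant, with a median log2 fold change of 0.0066. Log2 fold changes are given as mutant minus wild type, with a standard error (SE). This SE is not an output of edgeR. It was calculated as the size of the log2 fold change divided by the square root of the test's F statistic. Where calls are said to be lost, they were not made in that many of the 12 alternative fits with another scaling, filter, tool or block, or without a library.

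Of the members, 35 carry a gene symbol that says something of their product, 8 carry only a clone name and 2 have no symbol. Symbols in capitals are those of the human gene, as the name table gives them. CPM are not corrected for transcript length, so they are compared between libraries and not between genes.

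The members with ligands, receptors and other cell-surface proteins numbered 8, and their mutant means were 14.1% to 49.5% of wild type. The lowest of all 45 was gfra4a (ENSDARG00000056651), a co-receptor of the GDNF family, which passes the signal of these neurotrophic factors to the Ret kinase. It had 36.8, 33.9 and 32.5 CPM in wild-type replicates 1 to 3 and 5.59, 4.78 and 4.16 CPM in mutant replicates 1 to 3. The lowest wild-type library was 5.80 times the highest mutant library, the widest gap among the members, and the mean was 7.10-fold lower. RET itself was read at only 0.193 CPM in wild type and 0.084 CPM in mutant follicles. The ligand genes GDNF (ENSDARG00000039959) and nrtn were at 0.343 and 0.198 CPM in wild type and 0.246 and 0.276 CPM in mutant follicles. None of these had enough counts to be tested, and signalling through Ret was not tested. Of the other genes grouped by symbol with the GDNF ligands and receptors, 4 were expressed enough to be tested. A place in this group does not say which ligand a receptor binds. One of these genes, gfral, was called higher, from 0.0402 to 2.48 CPM. It had 0, 0.120 and 0 CPM in wild-type replicates 1 to 3. The other 3 did not pass the test. Among those 3, gfra4b went from 1.92 to 1.22 CPM (log2 fold change -0.63 ± 0.25 SE, edgeR adjusted p-value 0.0796).

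Adrenomedullin is a secreted peptide that acts on blood vessels through the receptor CALCRL and its RAMP partners. ADM (ENSDARG00000015263) had 81.9, 79.9 and 72.6 CPM in wild-type replicates 1 to 3 and 14.6, 15.6 and 16 CPM in mutant replicates 1 to 3. No library of one genotype came near the other, and the mean fell from 78.1 to 15.4 CPM, or 5.07-fold. The related peptide gene adm2a went the other way, from 1.08 to 3.96 CPM (log2 fold change 1.87 ± 0.29 SE, edgeR adjusted p-value 7.71e-04). The accessory receptor gene ramp2 was also called higher, from 1.36 to 2.84 CPM, and 2 further genes of the group did not pass the test.

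HBEGF codes for heparin-binding EGF-like growth factor, a membrane-anchored ligand of the EGF receptor that is released by cleavage. The copy that is a member, HBEGF (ENSDARG00000031246), had 40.9, 36.9 and 41.6 CPM in wild-type replicates 1 to 3 and 15.6, 15.4 and 14.2 CPM in mutant replicates 1 to 3. The other copy, hbegfa (ENSDARG00000075121), had 189, 189.7 and 204 CPM in the wild-type libraries against 211, 226 and 233 CPM in the mutant ones (log2 fold change 0.20 ± 0.06 SE, edgeR adjusted p-value 0.0190). That rise was not called in 4 of 12 alternative fits, where the highest adjusted p-value was 0.0757. Of 15 related ligands and receptors tested, 5 were called higher and 0 lower. Without wild-type replicate 1, wild-type replicate 2, mutant replicate 2 or mutant replicate 3 the count of higher genes was 3. The calls lost were those of hbegfa and nrg3b, each lost in 4 of 12 alternative fits. Among the higher ones, egf rose from 6.63 to 23.2 CPM (log2 fold change 1.80 ± 0.12 SE, edgeR adjusted p-value 2.87e-06), and the receptor EGFR from 10.6 to 16.8 CPM (log2 fold change 0.66 ± 0.14 SE, edgeR adjusted p-value 0.00441). TGFA and btc, further ligands of the same receptor, did not pass the test (edgeR adjusted p-values 0.717 and 0.253). TGFA had 44.7 ± 4.15 CPM in wild type against 45.8 ± 2.17 CPM in mutant follicles (mean ± SD, n = 3).

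RHBDL2 is a rhomboid protease, an enzyme that cuts other proteins within the membrane. It had 26.3, 27.3 and 25.3 CPM in wild-type replicates 1 to 3 and 9.01, 9.11 and 8.0 CPM in mutant replicates 1 to 3, so that 33.1% of the wild-type mean was left. The 3 relatives tested were all called higher: RHBDF1 under each of its identifiers and RHBDL3, the last from 1.47 to 4.71 CPM (log2 fold change 1.69 ± 0.17 SE, edgeR adjusted p-value 6.09e-05).

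Semaphorins and plexins are ligands and receptors of cell guidance. The ligand SEMA4B (ENSDARG00000076104) and the receptor plxnb2a.2 (ENSDARG00000077090) were both members. SEMA4B had 28.3, 28.0 and 27.6 CPM in wild-type replicates 1 to 3 and 14.5, 12.3 and 14.7 CPM in mutant replicates 1 to 3. For plxnb2a.2 the values were 36.0, 35.5 and 36.1 CPM in wild-type replicates 1 to 3 and 15.1, 18.1 and 18.2 CPM in mutant replicates 1 to 3. Within each gene the wild-type libraries were almost level and the mutant libraries spread more widely, still below them. The numbered plxnb2a genes share a name stem and may share reads. In the RefSeq gene order plxnb2a.1 and plxnb2a.3 are the nearest protein-coding genes on either side of plxnb2a.2. The first, plxnb2a.1, had 190.0 ± 12.4 CPM in wild type against 191 ± 2.91 CPM in mutant follicles (mean ± SD, n = 3) (log2 fold change 0.01 ± 0.05 SE, edgeR adjusted p-value 0.866), and did not pass the test. The other, plxnb2a.3, fell from 6.21 to 3.56 CPM (log2 fold change -0.81 ± 0.15 SE, edgeR adjusted p-value 0.00187). A second copy named SEMA4B (ENSDARG00000074414) was called higher, at 1.48 to 3.11 CPM (log2 fold change 1.08 ± 0.23 SE, edgeR adjusted p-value 0.00457). Together, 3 of the 12 tested relatives were called lower and 2 higher. Only 1 was called higher without mutant replicate 1, or with a filter of 1 CPM in 3 libraries. Where reads were divided between the copies, these values are uncertain, since the counting rule is not given in the sources used here.

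The remaining surface members were LRIT3, a leucine-rich-repeat membrane protein known from photoreceptor synapses in mammals, and VSTM2L, an immunoglobulin-domain protein. LRIT3 had 37.8, 35.9 and 37.8 CPM in the wild-type libraries against 12.3, 10.2 and 12 CPM in the mutant ones. VSTM2L had 45.6, 48.6 and 46.5 CPM in wild-type replicates 1 to 3 and 28.7, 27.6 and 12.6 CPM in mutant replicates 1 to 3. Mutant replicate 3 was far below the other two mutant libraries, and without it the ratio rises from 0.490 to 0.601, outside the limit. VSTM2L is thus a member through 1 library.

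Signalling proteins inside the cell gave 5 members, at 18.7% to 49.8% of wild type. pik3ap1 (ENSDARG00000078285), an adaptor that brings phosphoinositide 3-kinase to receptors in mammalian immune cells, had 39.4, 37.9 and 41.3 CPM in wild-type replicates 1 to 3 and 6.07, 8.41 and 7.68 CPM in mutant replicates 1 to 3. All 3 mutant libraries were far below the lowest wild-type library, and the mean was 5.35-fold lower. PIK3CD (ENSDARG00000003250), a catalytic subunit of the same kinase, had 57.8, 55.9 and 50.2 CPM in wild-type replicates 1 to 3 and 26, 27.1 and 28.6 CPM in mutant replicates 1 to 3, the ratio nearest to the upper limit. Of 11 other subunits, adaptors and interacting proteins tested, 5 were called higher, 0 lower and 6 did not pass the test. The regulatory subunit PIK3R3 (ENSDARG00000034409) rose from 75.2 to 124 CPM (log2 fold change 0.73 ± 0.06 SE, edgeR adjusted p-value 1.21e-05), and the catalytic subunit PIK3CA, which did not pass the test, had 20.9 ± 1.97 CPM in wild type against 23.4 ± 1.53 CPM in mutant follicles (mean ± SD, n = 3) (edgeR adjusted p-value 0.166).

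DOCK10 and FGD4 are exchange factors that switch on the small GTPase Cdc42, which organises the actin cytoskeleton. DOCK10 (ENSDARG00000075327) had 51.9, 52.1 and 48.7 CPM in wild-type replicates 1 to 3 and 17.0, 16.9 and 18.2 CPM in mutant replicates 1 to 3. FGD4 (ENSDARG00000101471) had 27.7, 26.7 and 24.3 CPM in wild-type replicates 1 to 3 and 10.9, 13.4 and 13.9 CPM in mutant replicates 1 to 3. The lowest wild-type library was 2.68 times the highest mutant library for DOCK10 and 1.75 times for FGD4, where the median over the members was 2.12. FGD4 was not found as a member without mutant replicate 1. Of the relatives of DOCK10, DOCK9 was called higher under both of its identifiers, and DOCK11 had 44.1 ± 2.62 CPM in wild type against 43.0 ± 2.61 CPM in mutant follicles (mean ± SD, n = 3), with no call (edgeR adjusted p-value 0.766). The other copy of FGD4, fgd4b, moved from 126 to 113 CPM (log2 fold change -0.16 ± 0.05 SE, edgeR adjusted p-value 0.0271), a small decrease that 6 of 12 alternative fits did not call. Of the 4 tested FGD relatives, it was the 1 called lower, and 2 were called higher. These were fgd5a, from 8.94 to 17.4 CPM (log2 fold change 0.96 ± 0.12 SE, edgeR adjusted p-value 1.94e-04), a call made in all 12 alternative fits, and FGD6, from 40.4 to 51.5 CPM (log2 fold change 0.35 ± 0.10 SE, edgeR adjusted p-value 0.0186), a call lost in 3 of them. Without wild-type replicate 1, mutant replicate 2 or mutant replicate 3 the counts were 0 lower and 1 higher, and without wild-type replicate 3 or mutant replicate 1 0 were called lower. With no count filter beyond 1 count in all, 0 were called lower too. The fifth member of this group, spata2l, is a relative of SPATA2, an adaptor of ubiquitin signalling, and had 70.0, 72.7 and 67.5 CPM in the wild-type libraries against 17.9, 22.2 and 20.2 CPM in the mutant ones.

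Transcription, chromatin and nuclear proteins gave 4 members, at 28.0% to 49.7% of wild type. ID3 (ENSDARG00000054823) is an inhibitor of basic helix-loop-helix transcription factors and a usual target of BMP signalling. It had 37.3, 31.5 and 37.6 CPM in wild-type replicates 1 to 3 and 14.2, 16.7 and 16.5 CPM in mutant replicates 1 to 3. ID1 (ENSDARG00000040764), under 20 CPM and so not eligible, fell from 15 to 7.48 CPM (log2 fold change -1.01 ± 0.11 SE, edgeR adjusted p-value 9.29e-05). ID2 (ENSDARG00000055283) fell less, from 113 to 95.3 CPM (log2 fold change -0.25 ± 0.06 SE, edgeR adjusted p-value 0.0115). The only other relative tested, id2b, did not pass the test. Of the 43 tested genes on a list of activin, inhibin, TGF-beta and BMP signalling, with ID1, ID2 and ID3 among them, 5 were called lower and 13 higher, with a median log2 fold change of 0.060. The background was the 15.3% and 18.6% given above. The called genes of this list with the highest CPM were SMAD2, which rose from 185 to 256 CPM, ID2, ACVR1B, which rose from 106 to 119.8 CPM, and TGFBR2, which fell from 47.6 to 41.6 CPM (edgeR adjusted p-values 1.51e-04, 0.0115, 0.0252 and 0.0322). The calls for ACVR1B and TGFBR2 were lost in 4 and 6 of 12 alternative fits. Without wild-type replicate 3 the count of higher genes was 8.

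SMARCAD1, a chromatin remodeller with a role in DNA repair and heterochromatin, had 49.5, 50.6 and 48.1 CPM in wild-type replicates 1 to 3 and 13, 14.9 and 16.8 CPM in mutant replicates 1 to 3. ZNF367, a zinc finger protein, had 21.7, 21.9 and 18.2 CPM in the wild-type libraries against 6.17, 5.63 and 5.51 CPM in the mutant ones. Both stood near 0.3 of wild type. ZPR1, a zinc finger protein that helps to fold the translation elongation factor eEF1A and binds the EGF receptor, was only just inside the limit. Its libraries were close together, at 149, 146 and 148 CPM in wild-type replicates 1 to 3 and 71.2, 74.1 and 74.9 CPM in mutant replicates 1 to 3.

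Protein folding, translation and turnover gave 5 members, at 35.1% to 47.3% of wild type. PDIA6 (ENSDARG00000009001) is a protein disulfide isomerase of the endoplasmic reticulum, where secreted proteins such as those of the egg coat are folded. It had 413, 405 and 401 CPM in wild-type replicates 1 to 3 and 138, 142 and 147 CPM in mutant replicates 1 to 3. The spread within each genotype was a few percent, and the mean was 406 ± 6.5 CPM in wild type against 143 ± 4.48 CPM in mutant follicles (mean ± SD, n = 3), a 2.85-fold drop. None of the 15 tested disulfide isomerases and related thioredoxin proteins was called lower, 4 were called higher and 11 did not pass the test. PDIA4 was at 910.1, 899.9 and 958 CPM in the wild-type libraries against 982, 1052 and 1092 CPM in the mutant ones (log2 fold change 0.18 ± 0.06 SE, edgeR adjusted p-value 0.0323), a call lost in 4 of 12 alternative fits. PDIA3 rose from 321 to 383 CPM (log2 fold change 0.26 ± 0.05 SE, edgeR adjusted p-value 0.00165). P4HB, which did not pass the test, had 781 ± 13.8 CPM in wild type against 851 ± 8.31 CPM in mutant follicles (mean ± SD, n = 3) (edgeR adjusted p-value 0.0549).

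A wider list of folding proteins of the cytosol and endoplasmic reticulum also held mitochondrial chaperones. Of its 34 tested genes, 4 were called lower, PDIA6 and the mitochondrial HSPA9 among them, and 9 higher. The median log2 fold change of the list was 0.057. The called genes with the highest CPM were the chaperone HSPA5 at 2338 to 2649.6 CPM, PDIA4, the mitochondrial chaperone HSPA9 at 578 to 449 CPM and calr3a at 572 to 688 CPM. Their log2 fold changes were 0.18, 0.18, -0.36 and 0.27 (edgeR adjusted p-values 0.0292, 0.0323, 4.58e-04 and 0.00520). The call for HSPA5 was lost in 3 of 12 alternative fits. The count of lower genes was 2 without any one of 5 of the 6 libraries, and 4 without mutant replicate 1.

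dap1b (ENSDARG00000086842) codes for a death-associated protein that was found on the dormant ribosomes of zebrafish eggs, in their exit tunnel. It had 206, 194 and 203 CPM in wild-type replicates 1 to 3 and 77.7, 82.1 and 78.5 CPM in mutant replicates 1 to 3. All libraries of a genotype were close to one another, and the mean was 2.53-fold lower in the mutant. Its relative DAP had 75.9 ± 4.18 CPM in wild type against 76.4 ± 2.34 CPM in mutant follicles (mean ± SD, n = 3) and a log2 fold change of 0.01, which did not pass the test (edgeR adjusted p-value 0.916).

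ppt2a.5 (ENSDARG00000068846) belongs to a series of numbered genes for palmitoyl-protein thioesterase 2, a lysosomal enzyme. It had 87.0, 82.3 and 93.0 CPM in wild-type replicates 1 to 3 and 38.9, 36.0 and 43.5 CPM in mutant replicates 1 to 3. The numbered copies moved in both directions. ppt2a.1 fell from 161 to 95.2 CPM (log2 fold change -0.75 ± 0.06 SE, edgeR adjusted p-value 6.98e-06). ppt2a.3 rose from 183 to 299 CPM (log2 fold change 0.72 ± 0.05 SE, edgeR adjusted p-value 8.36e-06), and ppt2a.2 rose from 71.0 to 89.0 CPM (log2 fold change 0.33 ± 0.07 SE, edgeR adjusted p-value 0.00453). These copies may share reads, so the share of each is uncertain. The lysosomal relative PPT1 also fell, from 79.6 to 48.8 CPM (log2 fold change -0.70 ± 0.07 SE, edgeR adjusted p-value 3.19e-05). Of the other turnover members, KLHL17, a substrate adaptor of cullin ubiquitin ligases, was left at 43.1% of wild type and trim35-27, of the large TRIM family, at 47.3%.

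Metabolism and mitochondria gave 6 members, at 25.9% to 49.7% of wild type. PFKM (ENSDARG00000014179) is a phosphofructokinase, the enzyme of the committed step of glycolysis. It had 47.3, 42.6 and 41.4 CPM in wild-type replicates 1 to 3 and 12.3, 9.41 and 12.4 CPM in mutant replicates 1 to 3, 3.86-fold lower. Of 10 tested relatives, the PFKFB enzymes among them, 2 were called lower and 3 higher, or 1 higher without wild-type replicate 3. The phosphofructokinase PFKP (ENSDARG00000012801) was called higher (edgeR adjusted p-value 0.0152), a call made in 11 of 12 alternative fits. Another phosphofructokinase, PFKL (ENSDARG00000099755), had 90.3 ± 6.02 CPM in wild type against 82.6 ± 2.21 CPM in mutant follicles (mean ± SD, n = 3) and did not pass the test (edgeR adjusted p-value 0.145). PFKFB3, which makes the activator of phosphofructokinase, rose from 13 to 29.0 CPM (log2 fold change 1.16 ± 0.07 SE, edgeR adjusted p-value 2.83e-06), while PFKFB4 (ENSDARG00000029075) fell from 45.6 to 31.7 CPM (log2 fold change -0.53 ± 0.08 SE, edgeR adjusted p-value 8.84e-04). Of 21 glycolysis genes tested, 5 were called lower, PFKM among them, and 4 higher, with a median log2 fold change of -0.0042. The 4 called genes of this list with the highest CPM were PKM (311 to 273 CPM), GPI (213 to 246 CPM), TPI1 (ENSDARG00000040988, 111 to 70.0 CPM) and pgam1a (99.7 to 86.4 CPM), with log2 fold changes of -0.18, 0.22, -0.66 and -0.20 (edgeR adjusted p-values 0.0233, 0.00959, 3.84e-05 and 0.0263). The calls for PKM and pgam1a were lost in 3 and 4 of 12 alternative fits. Without wild-type replicate 1, mutant replicate 2 or mutant replicate 3, the count of lower genes was 3.

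ME1, the cytosolic malic enzyme that supplies NADPH for lipid synthesis, had 70.6, 67.8 and 64.2 CPM in wild-type replicates 1 to 3 and 22.2, 23.1 and 23.3 CPM in mutant replicates 1 to 3. Neither other malic enzyme passed the test. ME3 had 169 ± 3.26 CPM in wild type against 165 ± 4.71 CPM in mutant follicles (mean ± SD, n = 3) and ME2 had 40.2 ± 3.95 CPM in wild type against 41.0 ± 2.72 CPM in mutant follicles (mean ± SD, n = 3) (edgeR adjusted p-values 0.648 and 0.786). Of the genes for mitochondrial proteins, GCDH, which acts in the breakdown of lysine and tryptophan, had 41.5, 39.1 and 41.4 CPM in the wild-type libraries against 12, 13.3 and 12.2 CPM in the mutant ones. SPATA18, a factor of mitochondrial quality control and a p53 target in human cells, had 25.2, 25.5 and 30.2 CPM in wild-type replicates 1 to 3 and 7.25, 6.92 and 7.02 CPM in mutant replicates 1 to 3, at 26.2% of wild type. The folate carrier SLC25A32 and the mitochondrial ribosomal RNA methyltransferase METTL15 were close to the upper limit, with ratios of 0.495 and 0.497.

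Extracellular matrix genes gave 3 members, at 35.5% to 47.5% of wild type. MMP9, a gelatinase that cuts matrix proteins, had 38.3, 39.9 and 36.0 CPM in wild-type replicates 1 to 3 and 18.7, 17.1 and 18.3 CPM in mutant replicates 1 to 3. Of the 14 tested metalloproteinases and inhibitors related to it, 8 were called higher, 0 lower and 6 did not pass the test. The calls for MMP16 and mmp25a were lost in 8 and 7 of the 12 alternative fits. MMP2, the other gelatinase, rose from 24.2 to 42.6 CPM (log2 fold change 0.82 ± 0.12 SE, edgeR adjusted p-value 6.22e-04). The inhibitor TIMP2 (ENSDARG00000061226) rose from 41.1 to 64.3 CPM (log2 fold change 0.65 ± 0.08 SE, edgeR adjusted p-value 2.60e-04). TGM2 (ENSDARG00000074094), a transglutaminase that cross-links matrix proteins, had 79.0, 76.3 and 81.2 CPM in wild-type replicates 1 to 3 and 30.2, 22.9 and 30.8 CPM in mutant replicates 1 to 3. Of its 4 relatives tested, 1 was called higher, 0 lower and 3 did not pass the test, or 2 higher without mutant replicate 2. The higher one in the main fit was f13a1b, the gene of a clotting factor subunit of the same enzyme family. It rose from 18.3 to 27.5 CPM (log2 fold change 0.59 ± 0.08 SE, edgeR adjusted p-value 2.64e-04).

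The copies of COL12A1, the gene of a collagen that decorates collagen fibrils, were opposed. The member (ENSDARG00000078322) had 34.7, 40.2 and 38.3 CPM in wild-type replicates 1 to 3 and 15.7, 14.2 and 16.2 CPM in mutant replicates 1 to 3. The other copy (ENSDARG00000019601) was at a low level and rose from 0.919 to 3.73 CPM (log2 fold change 2.06 ± 0.29 SE, edgeR adjusted p-value 4.46e-04). Of 9 tested relatives among fibril-associated collagens, 5 were called higher and 1 lower. The exception was COL9A2, which fell from 6.30 to 2.27 CPM (log2 fold change -1.47 ± 0.15 SE, edgeR adjusted p-value 7.12e-05).

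The members for microtubules and centrosomes were KATNAL1, a microtubule-severing katanin, and CEP85L, a centrosomal protein. KATNAL1 had 54.6, 50.8 and 55.0 CPM in the wild-type libraries against 26.2, 27.1 and 26.3 CPM in the mutant ones. CEP85L had 64.8, 69.1 and 65.9 CPM in the wild-type libraries against 22.7, 23.4 and 22.6 CPM in the mutant ones. Of the 4 other katanin genes tested, 2 were called lower and 0 higher. Leaving out any library but wild-type replicate 2 gave 1 lower. KATNA1 fell slightly from 129 to 109.9 CPM (log2 fold change -0.23 ± 0.06 SE, edgeR adjusted p-value 0.0110), a call lost in 1 of 12 alternative fits. KATNAL2 was called lower too (edgeR adjusted p-value 0.0248), a call made in 8 of 12 alternative fits. The last named members were LRRC8C, a subunit of the volume-regulated anion channel, and apol, of the apolipoprotein L family. LRRC8C had 22.6, 23.1 and 19.5 CPM in the wild-type libraries against 8.98, 7.77 and 11.6 CPM in the mutant ones. The subunit LRRC8A that the channel needs had 44.6 ± 5.90 CPM in wild type against 41.0 ± 3.78 CPM in mutant follicles (mean ± SD, n = 3) and was not called (edgeR adjusted p-value 0.423), and LRRC8D, which lies next to LRRC8C in the RefSeq gene order, fell from 10.6 to 7.86 CPM (log2 fold change -0.42 ± 0.10 SE, edgeR adjusted p-value 0.00908). The values of apol were 20.04, 20.4 and 20.2 CPM in the wild-type libraries against 9.32, 5.43 and 7.23 CPM in the mutant ones. The mutant libraries of both genes spread widely relative to their level.

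The 10 members with only a clone name or no symbol lay between 30.1% and 48.5% of wild type. The one with the highest CPM of all 45 was si:ch211-199m8.2 (ENSDARG00000099044), with 503, 548 and 556 CPM in wild-type replicates 1 to 3 and 272, 255 and 231 CPM in mutant replicates 1 to 3. The lowest ratio among the 10 was that of si:ch211-226h8.6, with 54.0, 37.9 and 42.3 CPM in wild-type replicates 1 to 3 and 16.1, 12.2 and 12 CPM in mutant replicates 1 to 3, where wild-type replicate 1 was above the other two. si:ch211-199g17.2 had 85.8, 92.5 and 86.2 CPM in the wild-type libraries against 33.0, 32.7 and 43.2 CPM in the mutant ones, si:ch1073-75o15.4 had 75.3, 71.3 and 75.2 CPM in the wild-type libraries against 34.1, 37.0 and 34.8 CPM in the mutant ones, and ENSDARG00000106684, which has no symbol, had 91.8, 84.8 and 78.9 CPM in the wild-type libraries against 44.4, 41.4 and 38.2 CPM in the mutant ones. Nothing is said of their products here.

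Members and their relatives were then set side by side. The 19 families were drawn up from the members, with earlier results known, and hold 21 members and 170 other genes, of which 128 were tested. Of these 128, 14 (10.9%) were called lower and 46 (35.9%) higher, and 68 did not pass the test. Over all genes tested the shares were 15.3% and 18.6%. The 21 members, chosen for being lower, are left out of the 128 but kept in those shares, so the sets are not alike. A relative at 20 CPM or more in wild type, as 50 of the 128 were, could not itself be at 0.5 or less without overlap, or it would be a member. In 11 of the 19 families edgeR called no tested relative lower. Of the 76 relatives in those families, 1 was lower at an unadjusted p-value under 0.05, and DESeq2 called 0 lower. Some of these 11 families are small, such as the malic enzymes with 2 tested relatives and the death-associated protein 1 family with 1. There a count of 0 says little. The most relatives called lower in a family were 3. Without mutant replicate 3, 1 relative among the EGF ligands and receptors was called lower.

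**Figure D2:**
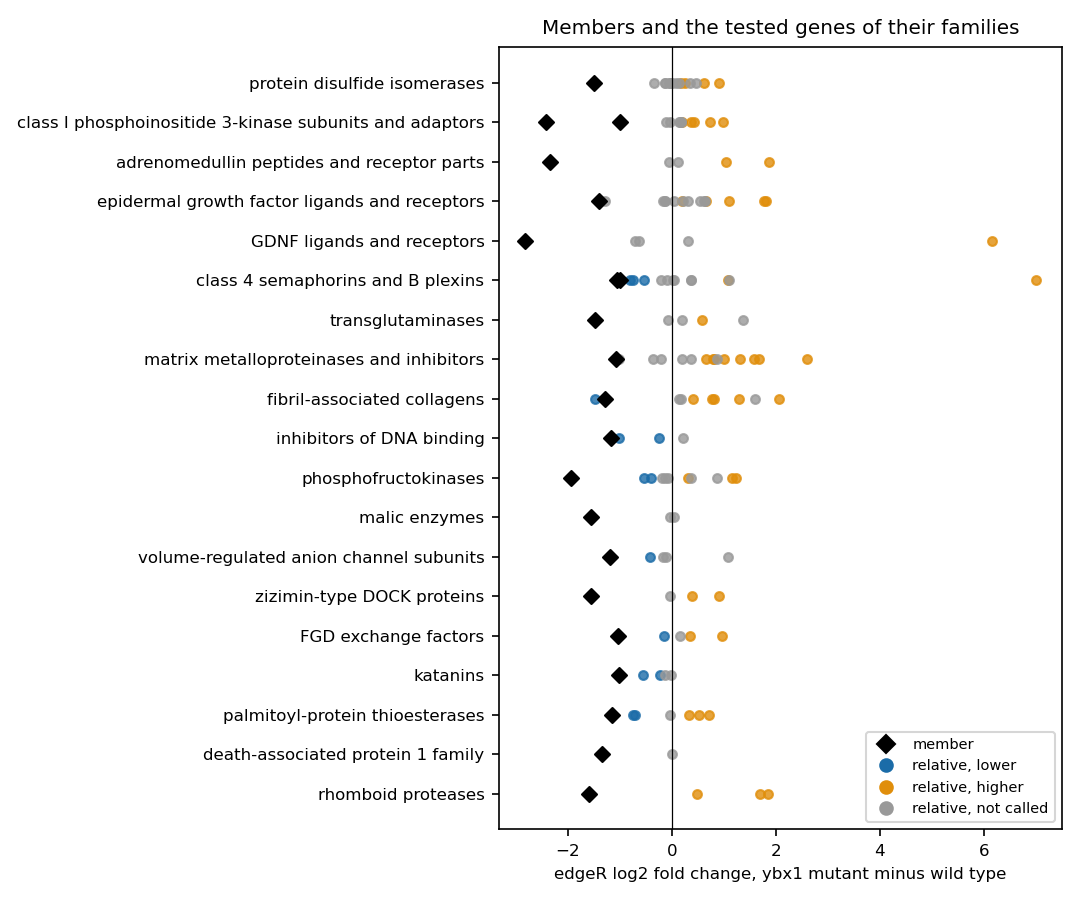
Each row is 1 of the 19 families and each point 1 gene, placed by its edgeR log2 fold change, mutant minus wild type. Black diamonds are members, blue circles relatives called lower, orange circles relatives called higher and grey circles relatives that did not pass the test. The 21 members lie near -1 or below by the choice of members, and most relatives lie near or above 0.

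Of the markers of the cell types that a follicle preparation can hold, some lists had many genes called and others few. The 19 tested oocyte markers had a summed level of 9095 to 9705 CPM in wild type, against 9368 to 9501 CPM in the mutant, and 1 of them, DAZL, was called lower and 0 higher. Of 22 tested markers of granulosa cells, the follicle cells around the oocyte, 13 were called higher and 0 lower, with a summed level of 220.2 to 235 CPM in wild type, against 345 to 361 CPM in the mutant. The highest of these were krt8 and CYP19A1, the latter the gene of aromatase, which rose from 31.3 to 68.1 CPM (log2 fold change 1.12 ± 0.13 SE, edgeR adjusted p-value 1.06e-04). Of 11 endothelial markers 7 were called higher and 0 lower (37.4 to 44.1 CPM summed in wild type, 65.9 to 77.9 CPM in the mutant), or 4 without mutant replicate 3. Of 10 smooth muscle markers 9 were called higher and 1 lower (94.6 to 101.6 CPM, then 126 to 137 CPM), or 5 higher without wild-type replicate 3. Of 16 tested genes listed as theca and stroma markers, 8 were called higher and 1 lower. MFAP4 under ENSDARG00000090783, ENSDARG00000111491 and ENSDARG00000116066 was among the higher ones. Which cells carry the MFAP4 reads was not tested, so they may not stand for theca or stroma. The summed level of the list was 1336 to 1607 CPM in wild type, against 3554 to 3633 CPM in the mutant. Without the identifiers named MFAP4 the range was 478 to 506 CPM in wild type, against 524 to 550.4 CPM in the mutant. For macrophages and other leukocytes 4 of 13 were called higher and 2 lower (63.2 to 66.8 CPM, then 59.6 to 68.9 CPM), and for red blood cells 1 of 6 was called higher and 0 lower (10.2 to 17.8 CPM, then 13.9 to 14.6 CPM). Small counts moved when a library was left out. Without wild-type replicate 1 the theca and stroma list had 0 called lower, and the counts of the red blood cell list changed as well. Without mutant replicate 3 the leukocyte list had 2 called higher and 1 lower. In the lists named so far with 0 called in a direction, DESeq2 called 0 too. In these, only 1 oocyte marker was higher at an unadjusted edgeR p-value under 0.05. The liver list is described below. No marker was at 0 in every library except 1 each in the theca, red blood cell, leukocyte and smooth muscle lists. None of the 45 members is on a marker list, and the part of cell composition in their decrease was not tested.

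Vitellogenin, the yolk precursor made mostly by the liver, split the libraries in another way. The 8 genes summed to 903 and 1460 CPM in wild-type replicates 1 and 2 and to 212 CPM in mutant replicate 1, but only to 22 CPM in wild-type replicate 3 and to 26.4 and 3.36 CPM in mutant replicates 2 and 3. Of 9 tested liver markers, edgeR called 0 in either direction (5 lower without mutant replicate 1, and 2 lower and 1 higher at an unadjusted p-value under 0.05; DESeq2 called 0), and their sum was 4.94 to 42.8 CPM in wild type, against 6.57 to 25.3 CPM in the mutant. A gene that split in this way could not be a member, since the rule asks for no overlap.

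**Figure D3:**
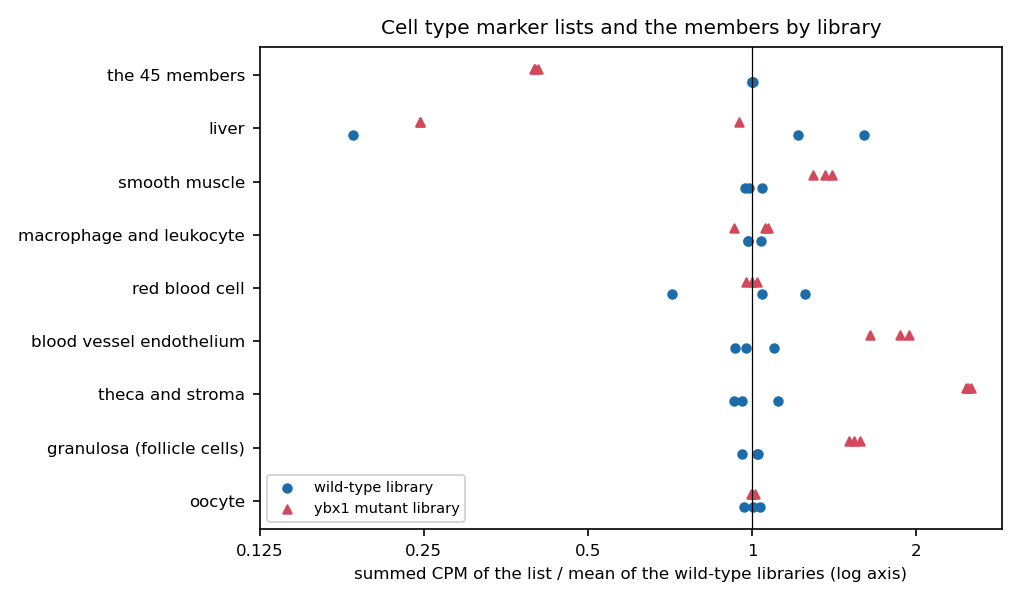
Rows are the 8 cell type marker lists and the 45 members, and each point is the summed CPM of the list in 1 library divided by the mean of the 3 wild-type libraries, on a log axis, with circles for wild type and triangles for the ybx1 mutant. The oocyte markers lie near 1, the granulosa, theca and stroma, endothelial and smooth muscle markers are higher in all 3 mutant libraries, the liver markers differ between libraries of one genotype, and the members are low in the mutant as their choice fixes. Without the identifiers named MFAP4, the theca and stroma sum was 478 to 506 CPM in wild type and 524 to 550.4 CPM in the mutant.

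Within a genotype the libraries lay close together for most members. The coefficient of variation over the 3 libraries had a median of 4.29% in wild type, against 4.84% for all genes at 20 CPM or more. In the mutant the median was 8.66% for the members and 5.08% for those genes, but the members have fewer counts there. At a mutant mean of 10 to 25 CPM, the 25 members in this band had a median of 9.39% and all 2421 genes in it 7.40%. Above 20% stood 3 members in the mutant, VSTM2L, apol and LRRC8C, and 0 in wild type. The requirement of no overlap favours genes with even libraries.

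The second deposited table, of the authors' normalized values, gave nearly the same ratios for most members. These values are the counts divided by factors that differ between libraries and, for some genes, between genes. In 35 of 45 members the ratio was within 5% of that from CPM, and no member overlapped between genotypes. Both tables hold the same counts, and members were chosen for no overlap, so this is no separate check. The same shares over all genes were not counted. COL12A1 (ENSDARG00000078322) departed most, with normalized values of 761, 790.1 and 762 in wild type and 482, 469.6 and 446 in the mutant. Its ratio was 0.408 from CPM and 0.604 from the normalized values, above the limit. In the other direction, TGM2 went from 0.355 to 0.255 and ppt2a.5 from 0.451 to 0.386. The ratios of apol, DOCK10 and pik3ap1 rose to 0.439, 0.387 and 0.225. The ratios of 3 members, COL12A1, METTL15 and ZPR1, were above 0.5 there.

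**Figure D4:**
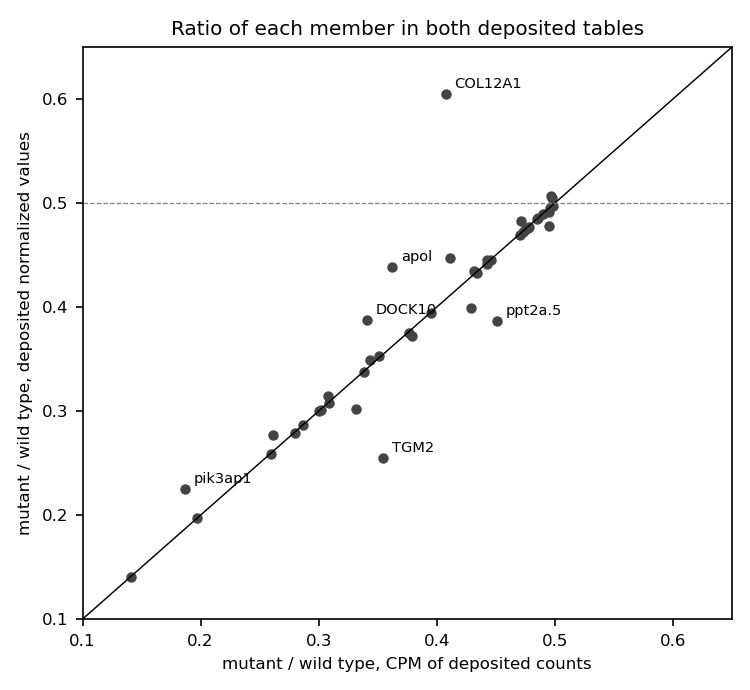
Each point is 1 of the 45 members, with the ratio of mutant to wild-type mean from CPM on the x axis and from the deposited normalized values on the y axis; the solid line marks equal ratios and the dashed line a ratio of 0.5. Most points lie on the line, members whose ratios differ most are named, and COL12A1 lies far above it.

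By a unique match of symbols, 29 of the 45 had a place among the protein-coding genes of RefSeq, assembly GRCz12tu, which was used for gene order only. No member was the direct neighbour of another. The closest pair was ME1 and RHBDL2, with 6 genes between them, and the nearest placed member to YBX1 was MMP9, with 634 genes between. Their direct neighbours included 31 tested genes, of which 8 (25.8%) were called lower and 7 higher, with a median log2 fold change of -0.044. The background over all genes tested was 15.3% lower and 18.6% higher, and 31 genes are few for such a comparison. Some neighbours fell steeply, and these were singled out after their values were seen. foxl2l, a marker of oocyte progenitors in zebrafish, lies next to PIK3CD and had 5.64 ± 0.310 CPM in wild type against 1.1 ± 0.223 CPM in mutant follicles (mean ± SD, n = 3) (log2 fold change -2.37 ± 0.20 SE, edgeR adjusted p-value 1.73e-05). msrab, which codes for a methionine sulfoxide reductase and lies next to ID3, had 2.89 ± 0.547 CPM in wild type against 0.410 ± 0.363 CPM in mutant follicles (mean ± SD, n = 3) (log2 fold change -2.65 ± 0.54 SE, edgeR adjusted p-value 0.00375). Between neighbours that overlap, reads cannot be told apart unless the counting used strand, which is not stated.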

How the data were processed

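RNA was extracted with TRIzol and made into libraries with a directional kit, per the labels' protocols. The submitters' processing notes name bcl2fastq, FastQC 0.11.5, HISAT2, StringTie, DESeq2 and the build GRCz11, without roles. The counting rule and annotation release are not given in the sources used here. One of the deposited tables lists raw counts of 32057 Ensembl genes. The other deposited table lists normalized values, a signal with no log taken.

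CPM were counts divided by the library total. Symbols came from a table of gene names that matched 28988 identifiers, and list symbols ending in a or b were matched to the human symbol where no exact match was found. The test across all genes was edgeR's quasi-likelihood test (edgeR 4.0.16, R 4.3.3) with TMM factors, the filterByExpr filter (minimum count 10, minimum total 15) and Benjamini-Hochberg adjustment over 17385 genes. Genes were called at adjusted p-values under 0.05. The test was checked on simulated counts in which 200 genes were changed 2-fold, up or down. It called 148 (74%) of them and 9 unchanged genes. A gene that did not pass the test may therefore still have changed. Far more genes were called in the real data, so the simulation does not match them in this. Alternatives were other scalings and filters, DESeq2 1.42.0, a replicate block and leaving out each library.

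The members and all lists were chosen with earlier results of these data known. The 8 marker lists and, of 18 pathway lists, the 3 that hold a member are reported. Members named were those of highest CPM, lowest ratio, on a list, next to a limit or in a family; other members and all relatives were named after their values were seen. From a list, at most the 4 called genes of highest CPM were named. Sequences of the members are not used here.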

Additional observations from a re-analysis of the deposited data

How the results depend on the processing

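Of the limits of the rule, the minimum level was varied: 88 genes met the limits at 10 CPM or more in wild type and 22 at 40 CPM or more. With TMM-scaled CPM the same 45 genes were found. With the deposited normalized values 47 genes were found, 41 of them members; those lost were ZPR1, apol, COL12A1 and METTL15. Leaving out one library gave between 44 and 51 genes, of which 40 to 44 were members, and the members lost had ratios of 0.478 or more, except ZNF367, whose wild-type mean is just inside 20 CPM. VSTM2L was lost without mutant replicate 3.

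The 2664 genes called lower and 3226 called higher in all became 2838 and 3272 with the replicate number as a block, and 1944 to 2421 and 2545 to 2921 when one library was left out. The 19 and 64 calls among listed genes became 22 and 63 with the block, and 14 to 23 and 50 to 61 without one library. Deviations of same-numbered libraries from their genotype means correlated at 0.100, 0.030 and 0.143, so the numbers were not taken to pair the libraries. The alternatives for the relatives and their families, and the theca and stroma sum without the identifiers named MFAP4, were chosen after seeing the data. Lengths, promoters and proteins of the members were not analysed here. For members at 40 CPM or more, 4 of 11 tested neighbouring genes (36.4%) were called lower, beside 15.3% of all genes tested. That share rests on few genes. Under the other scalings, filters and DESeq2, these counts stayed within 1.5 times the reported ones, except for small family counts. The FGD relatives called lower went from 1 to 0 with no count filter beyond 1 count in all. The semaphorin and plexin relatives called higher went from 2 to 1 with a filter of 1 CPM in 3 libraries. The lowest count of any member was 96, for gfra4a in mutant replicate 2. How precise the ratios are from counting alone was not calculated.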
